A study of Homo sapiens with 10 samples.

Results

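The genes described here belong to the NRF2 pathway, a cellular defence against oxidants and electrophiles. The members were HMOX1, SQSTM1, GCLM, GCLC, NQO1, FTL, FTH1, NFE2L2 and KEAP1. They were chosen by name, and a probe set counted when the platform annotation gave it 1 gene symbol and that symbol was on the list. Of the 9 genes, 7 had such a probe set, among 7713 genes with one in the whole table, and SQSTM1 had 2. That gave 8 probe sets of the 8793 in the table: 203665_at (HMOX1), 203925_at (GCLM), 202922_at (GCLC), 201468_s_at (NQO1), 201471_s_at and 213112_s_at (SQSTM1), 201146_at (NFE2L2) and 202417_at (KEAP1). FTL and FTH1 had no probe set named by that annotation and were not analysed here. The remaining genes fall into target enzymes (HMOX1, GCLM, GCLC, NQO1), the target and adaptor SQSTM1, and the control pair NFE2L2 and KEAP1.

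NRF2, the protein encoded by NFE2L2, is a transcription factor that is made continuously and destroyed continuously. In unstressed cells KEAP1 holds it and passes it to a ubiquitin ligase built on the scaffold CUL3. When reactive cysteines of KEAP1 are modified, NRF2 escapes, pairs with a small MAF protein and binds the antioxidant response element, from which its target genes are transcribed. SQSTM1, also called p62, is both a target and a regulator: it carries cargo to autophagosomes and can take KEAP1 with it. Phagocytes make reactive oxygen after their IgG receptors are engaged, and HMOX1 in macrophages also handles the haem of ingested cells. NRF2 activity is set largely at the protein level, which these arrays did not measure.

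All cells were U937, a human monocytic line, differentiated with interferon gamma. For the control cells the labels give neither a cross-linked receptor nor a time. The other cells had either CD32, a low-affinity receptor for IgG, or CD64, the high-affinity one, cross-linked, and were taken at 2 h or 6 h. The 5 groups are made of 2 arrays each, or 10 arrays. One CD32 2 h array has a source name that reads otherwise, and its title and description were followed. The labels do not say whether duplicates came from separate cultures, so the spread behind every p-value is that between duplicate arrays and may be technical. The labels name neither the cross-linking reagent nor a control antibody. Because U937 is 1 line, the arrays hold no variation between donors.

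The values are signal intensities on a linear scale, 1 per probe set and array. Signals under 37.5, the percentile 25 of the table, were treated as equal to that floor, which held for 20.2% of probe sets on one array and up to 29.8% on another. The median signal of an array was between 101 and 153. The number of arrays limits the precision. Of 6 monocyte markers on the array, ITGAM, SPI1, CSF1R, TYROBP and FCER1G, or 5, lay above the floor on 10 of 10 arrays, whereas CD14 did so on 3. FCGR2A, a gene for CD32, was measured at a mean signal of 606 to 700 in the groups. FCGR1A, a gene for CD64, was not analysed here. The summed signal of 4 epithelial markers was 45.7 to 189 and that of 4 fibroblast markers 85.3 to 326 on an array, against 4739 to 7872 for the monocyte markers. For the 6 T cell markers it was 204 to 365, for 4 B cell markers 159 to 553, for 4 natural killer cell markers 174 to 335 and for 3 erythroid markers 372 to 1001. Some markers moved with the groups. In the order control, CD32 2 h, CD32 6 h, CD64 2 h and CD64 6 h, the mean summed signal of the monocyte markers was 5668, 6106, 7594, 4910 and 6829. The monocyte factor SPI1 averaged 273, 332, 584, 112 and 110. CD14 averaged 6.75, 9.05, 36.4, 11.1 and 100, where means under the floor of 37.5 have no order among themselves. The erythroid markers summed to 612, 524, 563, 764 and 518 on average, and HBB among them, a beta globin, averaged 191, 199, 184, 421 and 255. The others did not follow HBB: EPOR averaged 323, 271, 250, 279 and 216, and SLC4A1 averaged 98, 55.4, 130, 64.4 and 46.9. The part of these shifts in the results below was not tested. Of the epithelial markers, KRT19 was above the floor on 0 of 10 arrays, CDH1 on 1, EPCAM on 5 and KRT5 on 9. Controls for labelling differed between groups: the mean log2 signal of 9 probe sets for added transcripts was 10.38 for control, 11.03 and 12.11 for CD32 (2 h, then 6 h) and 10.55 and 9.03 for CD64. Actin probe sets gave 3'/5' ratios of 1.3 for control, 1.56 and 1.99 for CD32 and 1.81 and 1.12 for CD64. Because these controls move with the groups, the steps they monitor cannot be told apart from receptor and time in any comparison below.

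The antioxidant response element, described above, was looked for by its letters alone, and binding was not measured. Its core was searched as TGACNNNGC, on both strands, in RefSeq promoter windows of build GRCh38.p14 that run from 250 bases before to 50 bases after an annotated start. Of 35116 such windows 13.3% held at least 1 match. The table gave 11 windows for 7 of the members, FTL among them, and 2 of the 11 held a match, 1 of GCLM and 1 of KEAP1. HMOX1 and FTH1 had no entry. The 250 bases before the GCLM start are shown because GCLM is the member enzyme that has a match and also rose (chr1:93909431-93909680, minus strand, the match in capitals).

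GCLM promoter: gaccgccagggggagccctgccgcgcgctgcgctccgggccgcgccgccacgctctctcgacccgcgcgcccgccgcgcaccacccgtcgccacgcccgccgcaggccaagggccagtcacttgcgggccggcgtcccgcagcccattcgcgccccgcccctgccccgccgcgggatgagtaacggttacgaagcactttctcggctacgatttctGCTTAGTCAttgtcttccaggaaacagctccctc

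The matches were then set side by side for the members and for TXNRD1. Among the wider lists described below, 89 genes had a window and 23 of them held a match in at least 1 window. Counted in the same way, 16.1% of all 27305 genes with a window held one. TXNRD1 is shown because it rose in all 4 comparisons with control and held a match. CUL3, TFRC and TXNIP also rose in all 4, and their windows held no match. Matches were not limited to genes that rose: GSTP1, which fell in all 4, and PIR, which fell in 3, each held one. SLC7A11, which rose in all 4, had no entry. Each stretch has 30 bases, 5′ to 3′ on the gene's strand, with the match in capitals. GCLM held its match 34 bases before the start (chr1:93909445-93909474, minus strand). KEAP1 held matches 54 and 31 bases before its second annotated start (chr19:10502806-10502835 and chr19:10502783-10502812, minus strand). TXNRD1 held one 99 and one 8 bases before its first start and one 102 bases before its second (chr12:104215670-104215699, chr12:104215761-104215790 and chr12:104286920-104286949, plus strand).
GCLM: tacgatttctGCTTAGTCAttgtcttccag
KEAP1, match 1: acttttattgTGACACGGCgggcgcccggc
KEAP1, match 2: gcccggctctGCTTAGTCAtggtgacctgc
TXNRD1, match 1: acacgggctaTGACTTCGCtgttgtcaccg
TXNRD1, match 2: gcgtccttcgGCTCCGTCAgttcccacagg
TXNRD1, match 3: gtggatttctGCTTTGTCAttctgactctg
The GCLM match and the second KEAP1 match have the same letters, GCTTAGTCA. A match describes letters only. No match was found in the windows of SQSTM1, GCLC, NQO1, FTL or NFE2L2, which says only that these letters are not in those windows.

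HMOX1, heme oxygenase 1, degrades haem to biliverdin, iron and carbon monoxide. Its signal on the 2 arrays of each group was 136.5 and 126.5 without cross-linking. It was 315.4 and 298.1 after 2 h and 214.5 and 234.4 after 6 h of CD32, and 464.6 and 632.7 after 2 h and 475.7 and 624.5 after 6 h of CD64. No cross-linked array overlapped with the controls, and no CD64 array overlapped with a CD32 array. In these bulk samples a change in every cell, a change in some of the cells and a change in the number of cells of a kind cannot be told apart. Against a control mean of 132 ± 7.07 (SD, n = 2), HMOX1 rose 2.33-fold after 2 h of CD32 (log2 1.22 ± 0.224 SE, adjusted p = 0.00397, limma). It rose 1.71-fold after 6 h of CD32 (0.77 ± 0.224, adjusted p = 0.0336). After CD64 it rose 4.13-fold at 2 h (2.04 ± 0.224, adjusted p = 0.000223) and 4.15-fold at 6 h (2.05 ± 0.224, adjusted p = 9.5e-05). The 2 CD64 means, 549 ± 119 and 550 ± 105, differ by less than their spread.

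The receptors differed in HMOX1. CD64 exceeded CD32 by 1.77-fold at 2 h (log2 difference 0.82 ± 0.224, adjusted p = 0.0292) and by 2.43-fold at 6 h (1.28 ± 0.224, adjusted p = 0.00285). The 6 h difference lay between 1.09 and 1.48 when single arrays were left out and passed the test each time. The 2 h difference failed it without CD32 2 h replicate 1 (adjusted p = 0.0994), without CD32 2 h replicate 2 (0.144) and without CD64 2 h replicate 2 (0.233). The rise after 6 h of CD32 failed it without control replicate 1 (0.0698), control replicate 2 (0.0951), CD32 2 h replicate 1 (0.0522), CD32 6 h replicate 1 (0.0836) or CD32 6 h replicate 2 (0.126), and when only the 2 groups compared were fitted (0.191). Between 2 h and 6 h of CD32 the mean went from 307 ± 12.2 to 224 ± 14.1, with no overlap of arrays, which did not pass (log2 -0.45, 95% interval -0.95 to 0.04, adjusted p = 0.322).

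**Figure D1:**
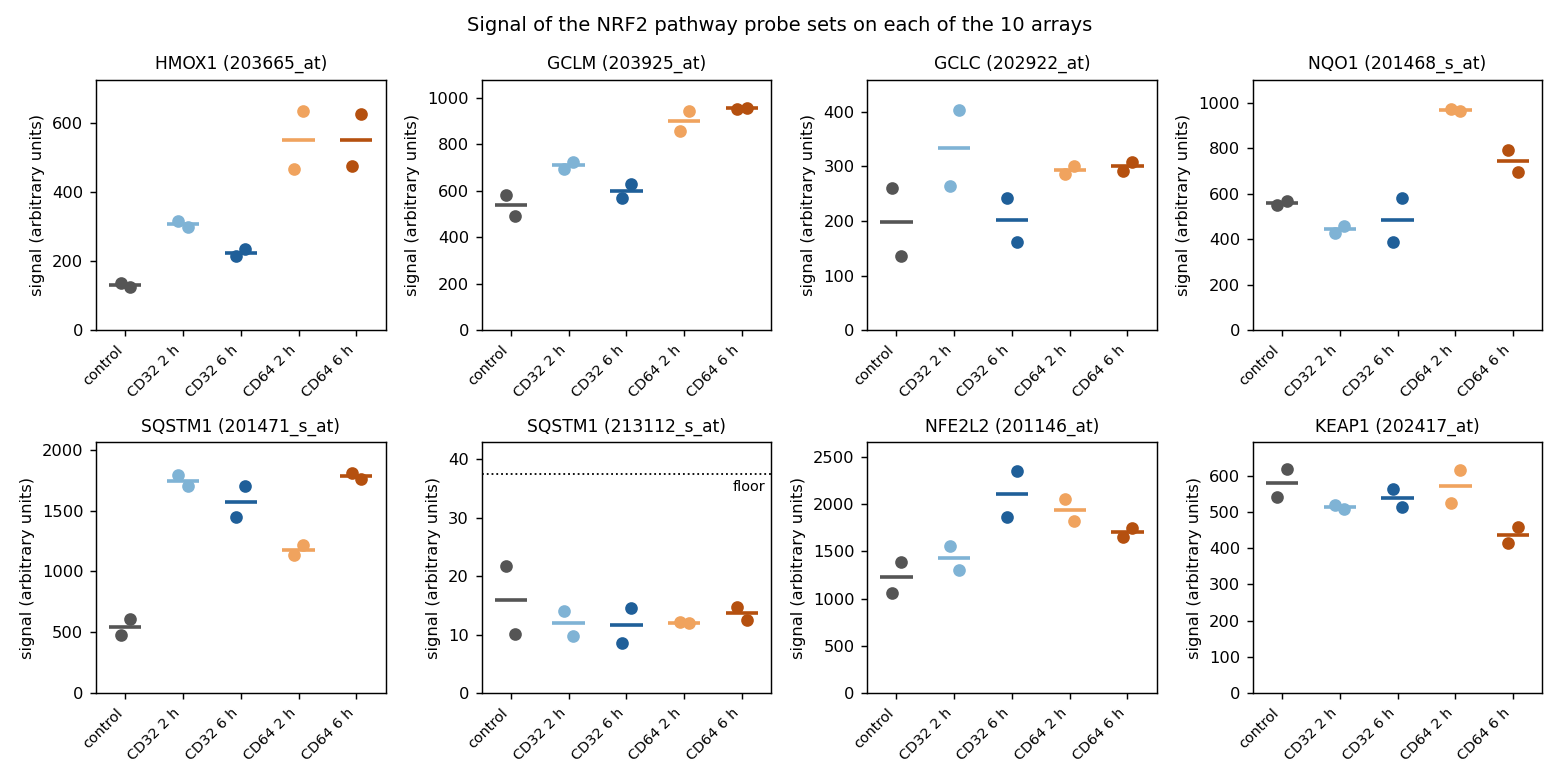
Signal in arbitrary units on a linear axis from 0 for the 8 probe sets, with 1 point per array, 2 per group, and a bar at the group mean. HMOX1 lies at 464.6 or above on the 4 CD64 arrays and at 315.4 or below on the others; the second SQSTM1 probe set lies under the floor of 37.5 (dotted) on all 10.

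GCLM and GCLC encode the modifier and the catalytic subunit of glutamate-cysteine ligase, which makes the first and rate-limiting step of glutathione synthesis. GCLM read 583.5 and 491.0 in control, 695.6 and 725.7 in CD32 2 h, 571.0 and 629.3 in CD32 6 h, 859.0 and 942.8 in CD64 2 h, and 953.1 and 956.8 in CD64 6 h. Its order of means was that of HMOX1, with control lowest, then CD32 6 h, CD32 2 h, CD64 2 h and CD64 6 h. GCLM rose 1.68-fold after 2 h of CD64 (log2 0.75 ± 0.125 SE, adjusted p = 0.00241) and 1.78-fold after 6 h (0.84 ± 0.125, adjusted p = 0.00074). After 2 h of CD32 it was 1.33-fold higher, at an adjusted p of 0.0499 (limma) that sits on the threshold. The call held in 1 of 7 settings other than leaving out 1 array. Quantile (adjusted p = 0.059) and cyclic loess normalization (0.0782), a lower floor of 18.8 (0.0566) and no filter on low signals (0.0502) ended it. So did no variance trend (0.13) and only the groups compared (0.143). That call was lost in 9 of 10 fits without 1 array, at adjusted p up to 0.201 and with log2 changes of 0.28 to 0.44; without control replicate 1 it held (adjusted p = 0.0344). At 6 h of CD32 the GCLM arrays overlapped with control (600 ± 41.2 against 537 ± 65.4).

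CD64 exceeded CD32 in GCLM by 1.59-fold at 6 h (log2 difference 0.67 ± 0.125, adjusted p = 0.00396). At 2 h the difference was 1.27-fold and did not pass (0.34, 95% interval 0.07 to 0.62, adjusted p = 0.0955). Over the 10 arrays GCLM and HMOX1 had a Pearson correlation of 0.97 in log2 signal, the highest of the 21 pairs of member probe sets tested. The 10 points share their groups and arrays, so this describes the same order of groups rather than 10 separate observations.

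The catalytic subunit was measured less closely. GCLC read 261.0 and 136.7 in control, 263.9 and 403.1 in CD32 2 h, 241.9 and 162.2 in CD32 6 h, 285.7 and 300.1 in CD64 2 h, and 292.0 and 308.6 in CD64 6 h. The 2 control arrays lay far apart, and GCLC passed the test in 0 of 9 comparisons, although 1 had an unadjusted p under 0.05 (limma). Its ratio to control was 1.73 at 2 h of CD32 (95% interval 1.02 to 2.91, adjusted p = 0.167), 1.05 at 6 h of CD32 (0.621 to 1.77), 1.55 at 2 h of CD64 (0.918 to 2.62) and 1.59 at 6 h of CD64 (0.942 to 2.68). These intervals hold the ratios of GCLM in the 4 comparisons. A difference between the subunits was not tested. Without control replicate 1, the higher control array, the difference at 2 h of CD32 passed (log2 1.25, adjusted p = 0.0482).

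NQO1, a quinone reductase that is widely used as a readout of NRF2, stood on opposite sides of control for the 2 receptors. It read 552.2 and 566.7 in control, 426.4 and 459.9 in CD32 2 h, 385.8 and 581.6 in CD32 6 h, 971.0 and 961.0 in CD64 2 h, and 791.0 and 696.7 in CD64 6 h. All 4 CD64 arrays lay above the controls, and 3 of 4 CD32 arrays lay below them. NQO1 rose 1.73-fold after 2 h of CD64 (log2 0.79 ± 0.177 SE, adjusted p = 0.0123). At 6 h of CD64 it was 1.33-fold above control, which did not pass (0.41, 95% interval 0.02 to 0.80, adjusted p = 0.144). After CD32 its ratio to control was 0.792 at 2 h (0.604 to 1.04) and 0.847 at 6 h (0.646 to 1.11), and neither passed.

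The difference between the receptors in NQO1 was 2.18-fold at 2 h (log2 1.13 ± 0.177, adjusted p = 0.0017) and 1.57-fold at 6 h (0.65 ± 0.177, adjusted p = 0.0279). The 2 h difference passed in all 10 fits without 1 array, at 1.07 to 1.18. The rise after 2 h of CD64 was lost without control replicate 1 (adjusted p = 0.0642), control replicate 2 (0.0516), CD64 2 h replicate 1 (0.0695) or CD64 2 h replicate 2 (0.061), and with no filter on low signals (0.0503) or no variance trend (0.0556). The 6 h difference was lost without CD32 6 h replicate 1 (0.179), CD64 6 h replicate 1 (0.179) or CD64 6 h replicate 2 (0.0756). It was also lost in 6 of the 7 other settings: quantile (0.0637) and cyclic loess normalization (0.0882), the higher floor (0.0781), no filter (0.0837), no variance trend (0.0879) and only the groups compared (0.074). The CD32 6 h duplicates disagreed on NQO1: without replicate 2, the higher array, its difference from control passed (log2 -0.54, adjusted p = 0.0411).

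SQSTM1 had the largest changes after CD32 among the members tested. The probe set 201471_s_at read 477.7 and 607.5 in control, 1793.1 and 1700.0 in CD32 2 h, 1447.7 and 1699.2 in CD32 6 h, 1135.6 and 1219.6 in CD64 2 h, and 1807.3 and 1757.8 in CD64 6 h. All 8 cross-linked arrays lay above both controls. SQSTM1 rose from 543 ± 91.8 (SD, n = 2) by 3.24-fold at 2 h of CD32 (log2 1.70 ± 0.127 SE, adjusted p = 1.09e-05) and by 2.91-fold at 6 h (1.54 ± 0.127, adjusted p = 1.57e-05). It rose 2.18-fold at 2 h of CD64 (1.13 ± 0.127, adjusted p = 0.000261) and 3.31-fold at 6 h (1.73 ± 0.127, adjusted p = 8.88e-06). Each of these 4 calls held in all 17 alternatives tried.

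At 2 h the order of the receptors in SQSTM1 was the reverse of that in HMOX1 and NQO1. CD64 lay below CD32 by 1.48-fold (log2 difference -0.57 ± 0.127, adjusted p = 0.0113). By 6 h the difference was 1.14-fold the other way and did not pass (0.18, 95% interval -0.10 to 0.47). Between 2 h and 6 h SQSTM1 rose 1.51-fold after CD64 (0.60 ± 0.127, adjusted p = 0.0102), while after CD32 its change was -0.15 (interval -0.44 to 0.13, adjusted p = 0.593). The interaction of receptor and time, which tests that contrast directly, was 0.75 ± 0.18 (adjusted p = 0.0208).

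These 3 timing results were less firm than the rises over control. The 2 h difference was lost without CD32 2 h replicate 1 (adjusted p = 0.0815), CD32 2 h replicate 2 (0.0546) or CD64 2 h replicate 1 (0.0783), at log2 values of -0.61 to -0.52. The rise from 2 h to 6 h of CD64 was lost without CD64 2 h replicate 1 (0.0704), CD64 6 h replicate 1 (0.0729) or CD64 6 h replicate 2 (0.0638). The interaction was lost in 6 of 10 fits without 1 array, namely without CD32 2 h replicate 1 (0.0816) or 2 (0.058), CD32 6 h replicate 1 (0.081), CD64 2 h replicate 1 (0.0725) and CD64 6 h replicate 1 (0.0746) or 2 (0.0676). Under quantile normalization, which moves the median interaction of all probe sets from 0.16 to 0, it was 0.70 (adjusted p = 0.0505). It was also lost at the higher floor of 75 (adjusted p = 0.0628), with no filter (0.0667) and with no variance trend (0.11).

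The other SQSTM1 probe set, 213112_s_at, was not above the floor on any array. Its signal was 21.7 and 10.1 in control and between 8.6 and 14.7 on the 8 cross-linked arrays, so it was not tested. It gives no reading of a change, and every SQSTM1 value above rests on 201471_s_at alone.

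**Figure D2:**
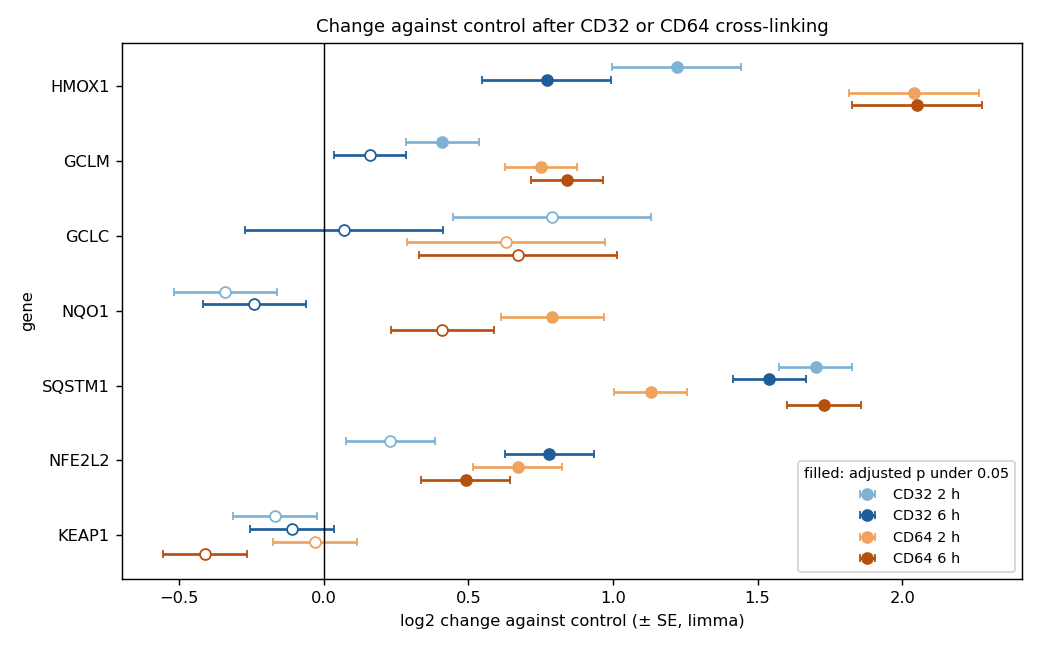
Log2 change against control with its standard error from limma for the 7 member probe sets tested, with 1 point for each of the 4 cross-linked groups of 2 arrays, filled where the adjusted p is under 0.05. HMOX1 is near 2.05 in both CD64 groups and at 1.22 and 0.77 in the CD32 groups, SQSTM1 is above 1.1 in all 4, and no KEAP1 point is filled.

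NFE2L2, which encodes NRF2 itself, rose in 3 of the 4 groups. It read 1061.0 and 1388.9 in control, 1552.5 and 1306.7 in CD32 2 h, 1858.6 and 2347.6 in CD32 6 h, 2052.2 and 1824.7 in CD64 2 h, and 1653.1 and 1749.0 in CD64 6 h. The CD32 2 h arrays overlapped with control, and the other 6 cross-linked arrays lay above it. NFE2L2 rose 1.72-fold after 6 h of CD32 (log2 0.78 ± 0.153 SE, adjusted p = 0.00418), 1.59-fold after 2 h of CD64 (0.67 ± 0.153, adjusted p = 0.0129) and 1.4-fold after 6 h of CD64 (0.49 ± 0.153, adjusted p = 0.0449). At 2 h of CD32 the change was 0.23 (95% interval -0.11 to 0.57, adjusted p = 0.396).

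The rise of NFE2L2 after 6 h of CD32 held in all 17 alternatives. That after 2 h of CD64 was lost without control replicate 1, the lower control array (0.48, adjusted p = 0.104), or without CD64 2 h replicate 1 (0.0964). That after 6 h of CD64 was lost in 7 of 10 fits without 1 array, most without control replicate 1 (log2 0.29, adjusted p = 0.299) and otherwise without either replicate of CD32 2 h (0.0588 and 0.054), of CD64 2 h (0.057 and 0.0543) or of CD64 6 h (0.122 and 0.198). Both CD64 rises of NFE2L2 were also lost at the higher floor of 75 (adjusted p = 0.0649 and 0.134), with no filter (0.0686 and 0.143) and with no variance trend (0.0786 and 0.156), and the later one under quantile normalization (0.0604). From 2 h to 6 h the log2 change of NFE2L2 was 0.55 after CD32 (adjusted p = 0.0689) and -0.19 after CD64 (adjusted p = 0.555), and neither passed. The interaction was -0.74 ± 0.216 at an adjusted p of 0.0512, which did not pass. Under cyclic loess normalization (adjusted p = 0.049), at the lower floor of 18.8 (0.0316) and with only the groups compared (0.0303) it passed. It passed without control replicate 1 (0.0359), control replicate 2 (0.04) or CD32 6 h replicate 1 (0.042).

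KEAP1, the sensor that restrains NRF2, was called in 0 of 9 comparisons, with 2 at an unadjusted p under 0.05 (limma). It read 542.0 and 618.6 in control, 518.3 and 508.7 in CD32 2 h, 564.5 and 513.0 in CD32 6 h, 525.1 and 615.6 in CD64 2 h, and 415.1 and 458.2 in CD64 6 h. Only the CD64 6 h arrays lay apart, below all 8 others. The ratio to control was 0.753 there (95% interval 0.603 to 0.941, adjusted p = 0.0731), and 0.887, 0.929 and 0.982 in CD32 2 h, CD32 6 h and CD64 2 h, with intervals from 0.71 to 1.23. The CD64 6 h difference from control passed under quantile (adjusted p = 0.0309) and cyclic loess normalization (0.0362). So did its difference from CD64 2 h (0.0389 and 0.0394, against 0.12 as deposited).

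Counted together, every call of a member against control was upward. All 7 tested probe sets lay above the floor on 10 of 10 arrays, so none was tested because of 1 high group. At 2 h of CD32, 3 of 7 rose and 0 fell, where 15.5% of all 7708 probe sets tested were called, 8.86% higher and 6.60% lower. At 6 h of CD32, 3 rose and 0 fell, where 20.0% of all were called, 9.63% higher and 10.3% lower. At 2 h of CD64, 5 rose and 0 fell, where 15.9% of all were called, 7.64% higher and 8.24% lower. At 6 h of CD64, 4 rose and 0 fell, where 20.6% of all were called, 10.7% higher and 9.94% lower. The median log2 change of the 7 was 0.41, 0.16, 0.75 and 0.67 in that order, beside -0.03, -0.08, -0.13 and -0.04 over all probe sets. The 4 comparisons share the 2 control arrays. HMOX1 and SQSTM1 were called in 4 of 4, GCLM and NFE2L2 in 3, NQO1 in 1, and GCLC and KEAP1 in 0.

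Arrays that do not overlap were common in the whole table. In the same order of groups 6, 3, 6 and 7 of the 7 member probe sets had arrays that did not overlap with control, and so did 50.2%, 54.0%, 51.7% and 53.1% of all. At 6 h of CD32 the share of members was below that of the table. Without 1 array the members called against control numbered 2 to 4, 2 to 3, 3 to 5 and 3 to 5, and the 5 at 2 h of CD64 became 3 without control replicate 1 or without CD64 2 h replicate 1.

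Between receptors, 2 of 7 members were higher after CD64 at 2 h and 1 was lower, where 16.3% of all probe sets were called, 6.86% higher and 9.43% lower. At 6 h 3 were higher and 0 lower, where 17.6% of all were called, 9.81% higher and 7.80% lower. The arrays of the receptors did not overlap for 6 of 7 members at 2 h, against 55.8% of all, and for 7 of 7 at 6 h, against 56.7%. Without either CD32 2 h array the members called between receptors at 2 h numbered 1 in place of 3. Between times, 0 of 7 were called after CD32, where 4.46% of all were (1 member had an unadjusted p under 0.05 in limma), and 1 rose after CD64, where 13.8% of all were called, 7.56% higher and 6.25% lower. Arrays of the 2 times did not overlap for 5 members after either receptor, against 48.4% of all after CD32 and 52.8% after CD64. The interaction was called for 1 of 7, upward, where 11.5% of all were called, 6.72% upward and 4.75% downward.

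**Figure D3:**
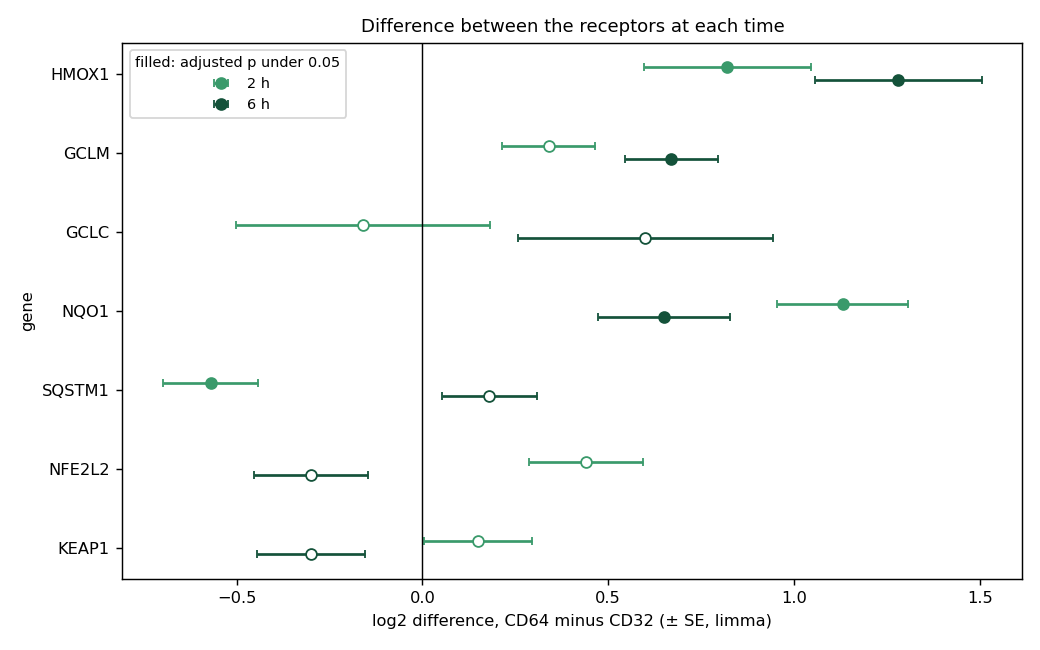
Log2 difference in signal, CD64 minus CD32, with its standard error from limma, at 2 h and at 6 h for the 7 member probe sets tested, 2 arrays per group, filled where the adjusted p is under 0.05. HMOX1 and NQO1 lie to the right of 0 at both times, and SQSTM1 lies at -0.57 at 2 h and 0.18 at 6 h.

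Other targets of NRF2 did not share a direction. Of 38 genes on a list of further targets 33 had a probe set and 31 were tested. In the order CD32 2 h, CD32 6 h, CD64 2 h and CD64 6 h, 4, 5, 3 and 5 rose and 3, 6, 5 and 5 fell. The median log2 change was -0.11, -0.04, -0.12 and 0, close to that of all probe sets. In 4 of 4 comparisons 2 genes rose, SLC7A11 and TXNRD1, and 2 fell, ABCC1 and GSTP1, the last named after its values were seen. In 0 of 4 comparisons 15 were called.

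SLC7A11, the cystine transporter that supplies glutathione synthesis, is also a target of the amino acid stress factor ATF4. It went from 173 ± 2.62 in control to 808 ± 32.5 at 2 h of CD32 and 886 ± 41.8 at 6 h of CD64, a rise of 4.68-fold and 5.13-fold (log2 2.23 and 2.36 ± 0.138 SE, adjusted p = 4.18e-06 and 2.03e-06). It rose 3.01-fold at 6 h of CD32 and 2.77-fold at 2 h of CD64. TXNRD1, thioredoxin reductase, went from 946 ± 79.4 to 1511 ± 43.1, 1862 ± 51, 1818 ± 36.6 and 1541 ± 8.13 in the same order of groups as above, a rise of 1.6-fold to 1.97-fold (largest adjusted p = 0.000611). UGDH, which makes UDP-glucuronate, rose 2.52-fold, 2.16-fold and 2.9-fold in CD32 2 h, CD32 6 h and CD64 6 h. At 2 h of CD64 its ratio was 1.62 (adjusted p = 0.1). ABCC2, an export pump for conjugates, read 42.7 and 15.6 in control, the second under the floor, and 138.0 and 136.8 at 6 h of CD64. Its fitted rise there, with the low array set to the floor, was 3.43-fold (95% interval 2.03 to 5.82, adjusted p = 0.00371).

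The targets that fell include an export pump and a glutathione enzyme. ABCC1, which exports glutathione conjugates, had ratios to control of 0.584, 0.54, 0.603 and 0.509. GSTP1, a glutathione transferase, fell by 0.42, 0.36, 0.35 and 0.44 on the log2 scale. PIR, an iron-binding nuclear protein, had ratios of 0.55, 0.498 and 0.593 in CD32 2 h, CD32 6 h and CD64 6 h, and 0.97 at 2 h of CD64 (adjusted p = 0.924). GSR, glutathione reductase, had a ratio of 0.439 at 6 h of CD32 (adjusted p = 0.00509) and did not pass elsewhere. Leaving out 1 array ended some of these calls. UGDH was lost at 2 h of CD32 without CD32 2 h replicate 1 (adjusted p = 0.055) and at 6 h without control replicate 2 (0.0638) or CD32 6 h replicate 2 (0.0877), and GSR without control replicate 2 (0.0528). ABCC1 was lost at 2 h of CD32 without control replicate 2 (0.0693) or either CD32 2 h array (0.0774 and 0.0661), and at 2 h of CD64 without either control (0.0622 and 0.0786) or CD64 2 h replicate 2 (0.123). GSTP1 was lost without control replicate 1 at 2 h (0.0605) and 6 h of CD32 (0.101) and at 2 h of CD64 (0.133), without CD32 2 h replicate 2 (0.0652) or CD32 6 h replicate 1 (0.117), and without either CD64 2 h array (0.131 and 0.0668). PIR was lost at 6 h of CD64 without CD64 6 h replicate 1 (0.0593).

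**Figure D4:**
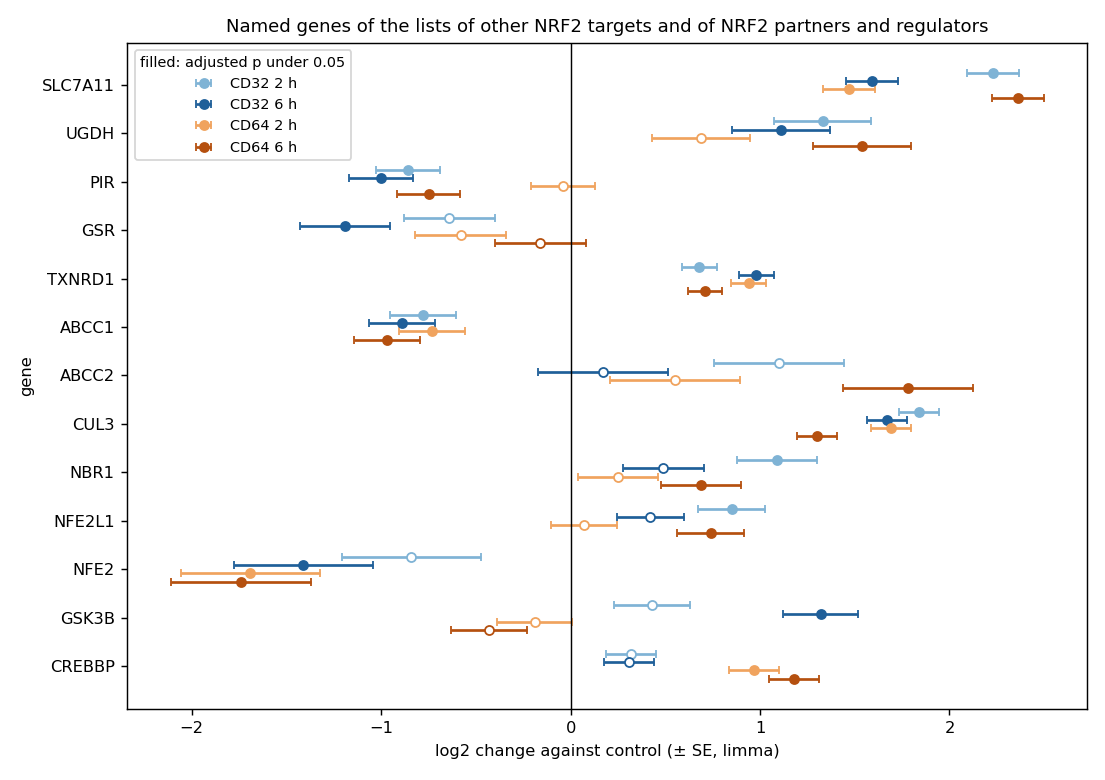
Log2 change against control with its standard error from limma for the 13 named genes of the lists of other NRF2 targets (SLC7A11 to ABCC2) and of NRF2 partners and regulators (CUL3 to CREBBP), 2 arrays per group, filled where the adjusted p is under 0.05. SLC7A11, TXNRD1 and CUL3 are filled to the right of 0 in all 4 groups, and ABCC1 is filled to the left of it in all 4.

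Among 26 partners and regulators of NRF2, 19 were on the array and tested. In the same order of groups 4, 4, 3 and 7 rose and 2, 1, 2 and 2 fell, or 31.6%, 26.3%, 26.3% and 47.4% called, beside 15.5%, 20.0%, 15.9% and 20.6% of all probe sets. CUL3, the scaffold of the ligase that acts with KEAP1, was the 1 gene of this list to rise in all 4. It read 478.7 and 419.0 in control and between 1053.6 and 1665.6 on the 8 cross-linked arrays, with rises of 3.58-fold, 3.18-fold, 3.22-fold and 2.47-fold (log2 1.84, 1.67, 1.69 and 1.30 ± 0.106 SE, largest adjusted p = 1.57e-05). All 4 rises held in the 17 alternatives. CREBBP, a histone acetyltransferase that works with NRF2, rose 1.96-fold and 2.27-fold after 2 h and 6 h of CD64 (adjusted p = 0.000736 and 0.000113). After CD32 its ratios were 1.25 and 1.24 and did not pass.

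NFE2L1, a relative of NRF2 that controls proteasome genes, rose 1.8-fold at 2 h of CD32 and 1.67-fold at 6 h of CD64. NBR1, an autophagy receptor related to SQSTM1, rose in the same 2 groups, 2.12-fold and 1.61-fold. NFE2, the founding member of this factor family and an erythroid and platelet factor, fell to ratios of 0.376, 0.309 and 0.3 in CD32 6 h, CD64 2 h and CD64 6 h. GSK3B, a kinase that marks NRF2 for a second route of degradation, rose 2.5-fold at 6 h of CD32 (adjusted p = 0.000872) and had a ratio of 0.74 at 6 h of CD64 (adjusted p = 0.168). BACH1, the repressor that competes with NRF2 at HMOX1, had ratios to control that did not pass in any of the 4 groups, at log2 changes of -0.17, -0.12, 0.37 and 0.37. MAFG, a small MAF partner, had changes of 0.07, -0.04, 0.20 and -0.12, which did not pass either. BACH1 and MAFG lie outside the rule for named genes and were added for their roles after their values were seen. Several of these calls turned on 1 array. NFE2L1 was lost without control replicate 2 in both groups (adjusted p = 0.0608 and 0.0825), without CD32 2 h replicate 2 (0.0706) and without CD64 6 h replicate 2 (0.129). NBR1 was lost at 2 h of CD32 without CD32 2 h replicate 2 (0.0644), and at 6 h of CD64 in 12 of 17 alternatives, without control replicate 2 among them (0.173). NFE2 was lost at 6 h of CD32 without either control (0.0816 and 0.0523) or CD32 6 h replicate 2 (0.111), at 2 h of CD64 without control replicate 1 (0.0533) or CD64 2 h replicate 2 (0.0684), and at 6 h of CD64 without CD64 6 h replicate 1 (0.0519).

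Iron and haem genes were read because HMOX1 releases iron. Of 26 on the list 17 were tested, of which 1 rose in each of the 4 comparisons and 4, 3, 1 and 2 fell. Those are 29.4%, 23.5%, 11.8% and 17.6% of the list, beside 15.5%, 20.0%, 15.9% and 20.6% of all probe sets, so at 2 h and 6 h of CD64 the list was called no more often than the table. The gene that rose was TFRC, the transferrin receptor for iron uptake, each time. It read 2090.2 and 1873.5 in control, 3602.0 and 3615.0 in CD32 2 h, 5051.0 and 5119.7 in CD32 6 h, 3168.7 and 3062.8 in CD64 2 h, and 5401.9 and 4650.3 in CD64 6 h, with no overlap with control. The rises were 1.82-fold, 2.57-fold, 1.57-fold and 2.53-fold (largest adjusted p = 0.00104). PCBP2, which delivers iron to ferritin and also binds RNA, fell in all 4, with ratios of 0.738, 0.717, 0.631 and 0.647. UROD, an enzyme of haem synthesis, had ratios of 0.761 and 0.614 after CD32 (adjusted p = 0.0432 and 0.00153), and of 1.17 and 1.21 after CD64, which did not pass. The fall at 2 h of CD32 is weak, since it was lost in 8 of 10 fits without 1 array (adjusted p up to 0.174) and held only without either CD64 2 h array. HMOX2, the constitutive heme oxygenase, was called in 0 of 4 comparisons, with 1 at an unadjusted p under 0.05 (limma); it was added for its role after its values were seen.

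Among 18 tested antioxidant enzymes and regulators outside the NRF2 lists, 1, 1, 5 and 4 rose and 4, 4, 2 and 4 fell in the same order of groups. TXNIP, an inhibitor of thioredoxin, was the gene that rose in all 4, from 512 ± 35.5 in control by 7.1-fold, 5.62-fold, 2.05-fold and 5.23-fold. GLRX, glutaredoxin, rose 1.44-fold and 1.39-fold after 2 h and 6 h of CD64. CAT, catalase, had ratios of 0.722, 0.732 and 0.694 in CD32 2 h, CD32 6 h and CD64 6 h (largest adjusted p = 0.042). The list of antioxidant enzymes had 27.8%, 27.8%, 38.9% and 44.4% of its tested genes called, beside 15.5%, 20.0%, 15.9% and 20.6% of all probe sets. The other NRF2 targets had 22.6%, 35.5%, 25.8% and 32.3% called. These shares describe the lists, which mix directions. GLRX was lost at 2 h of CD64 without control replicate 1 (adjusted p = 0.0774) or CD64 2 h replicate 2 (0.0925), and at 6 h without control replicate 1 (0.0909) or either CD64 6 h array (0.0609 and 0.0879). CAT was lost at 6 h of CD64 without control replicate 2 (0.126) or CD64 6 h replicate 1 (0.167) and under quantile normalization (0.182), and after CD32 without either control (0.0697 and 0.194 at 2 h, 0.0678 and 0.19 at 6 h) among others.

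Among the 26 named list genes, the order that SQSTM1 showed at 2 h, CD64 below CD32, was called in SLC7A11, TXNIP, NFE2L1, NBR1 and SELENOW. The whole lists were called in both directions at 2 h. In the order other targets, partners and regulators, iron and haem genes, and antioxidant enzymes, 5, 5, 0 and 3 were lower after CD64. In that order 4, 3, 3 and 2 were higher, while of all probe sets 9.43% were lower and 6.86% higher. SLC7A11 was lower after CD64 than after CD32 at 2 h (log2 difference -0.76 ± 0.138 SE, adjusted p = 0.00374) and higher at 6 h (0.77 ± 0.138, adjusted p = 0.00321), with an interaction of 1.53 ± 0.196 (adjusted p = 0.00083). TXNIP was lower at 2 h by 3.46-fold (-1.79 ± 0.0939, adjusted p = 5.45e-06), while at 6 h the difference was -0.10 (adjusted p = 0.554), and its interaction was 1.69 ± 0.133 (adjusted p = 6.87e-05). These SLC7A11 and TXNIP calls held in all 17 alternatives. NBR1 (-0.83 ± 0.212, adjusted p = 0.0214, limma) and SELENOW of the antioxidant list (-0.55 ± 0.169, adjusted p = 0.0492) were lower at 2 h. Neither of these calls held in all 17. NFE2L1 was lower at 2 h as well (-0.77 ± 0.176, adjusted p = 0.0127), a call lost without CD32 2 h replicate 2 (0.101) or CD64 2 h replicate 1 (0.0968).

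The opposite order, CD64 above CD32 as in HMOX1 and NQO1, was called at both times in 3 named genes. These were CREBBP and the haem synthesis enzymes UROD and CPOX. At 6 h, 5, 2, 3 and 3 genes of the 4 lists were higher after CD64, in the list order given above. In that order 2, 3, 0 and 1 were lower, while of all probe sets 9.81% were higher and 7.80% lower. UROD was higher after CD64 by 1.54-fold at 2 h (adjusted p = 0.00416) and by 1.97-fold at 6 h (adjusted p = 0.000245). CPOX, coproporphyrinogen oxidase, was higher by 2.26-fold at 2 h (702 against 1587 mean signal, adjusted p = 0.00468) and by 1.93-fold at 6 h (adjusted p = 0.0135). The later CPOX difference was lost without CD32 6 h replicate 1 (0.0841) or either CD64 6 h array (0.0726 and 0.0759). CREBBP was higher by 1.57-fold (adjusted p = 0.00718) and 1.84-fold (adjusted p = 0.00117), the first of which was lost without CD32 2 h replicate 2 (0.0572) or CD64 2 h replicate 1 (0.0711). Beside these differences, the erythroid marker HBB averaged 421 after CD64 and 199 after CD32 at 2 h, and 255 and 184 at 6 h. SLC4A1, another erythroid marker and above the floor on 8 of 10 arrays, averaged 64.4 and 55.4 at 2 h and 46.9 and 130 at 6 h. EPOR averaged 279 and 271 at 2 h and 216 and 250 at 6 h. The part of these markers was not tested. GSK3B was lower after CD64 at 6 h by 3.38-fold (adjusted p = 0.000192), which held in all 17 alternatives.

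The genes whose signal followed HMOX1 and SQSTM1 most closely were found by Pearson correlation of log2 signal over the 10 arrays, among probe sets with 1 symbol. For HMOX1 they were TXNDC9, a thioredoxin-domain protein, at 0.977, PRDX4, a peroxiredoxin of the endoplasmic reticulum, at 0.967, and ID2, an inhibitor of helix-loop-helix transcription factors, at 0.965. TXNDC9 had mean signals of 663, 1308, 859, 2042 and 1826 in control, CD32 2 h, CD32 6 h, CD64 2 h and CD64 6 h. ID2 had 722, 1592, 979, 2263 and 2027. PRDX4 had 2022, 2321, 2170, 2529 and 2563, a smaller range. Of the 3, PRDX4 has its highest mean at CD64 6 h, and the other two have theirs at CD64 2 h.

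For SQSTM1 the closest were EPAS1, a hypoxia-inducible factor subunit, at 0.982, RAPGEF2, an exchange factor for RAP proteins, at 0.981, and GMFB, glia maturation factor beta, at 0.980. EPAS1 had mean signals of 167, 464, 410, 284 and 515 in the same order, so that CD64 2 h was again the lowest of the cross-linked groups. Without any 1 array these 6 correlations were 0.954 to 0.988. The 10 points form 5 groups that share arrays and scaling with every other gene, and the genes were picked as the highest of all, so the values are descriptions.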

How the data were processed

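The authors deposited 1 table of linear signal intensity from a 1-colour oligonucleotide array, with 8793 probe sets and 10 arrays. In the deposited values the mean of an array, trimmed by 2% at either end, lay between 500.5 and 500.6, so arrays had been scaled to a common level. The sources used here name no software for that step, and no further normalization was applied. Control probe sets (47) were left out. Of 8746 others 7840 had 1 symbol in the platform annotation, 388 several and 518 none.

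Values under the floor of 37.5 were set to it and log2 was taken. Probe sets that exceeded it on 2 or more arrays (7708) were fitted with limma 3.58.1 (R 4.3.3): 1 term per group, all 10 arrays, eBayes with a variance trend, 5 residual and 5.65 prior degrees of freedom. Tests were two-sided, p-values were adjusted by Benjamini-Hochberg over all 7708, and a change was called under 0.05. The fit was also run on simulated data with independent noise and no array effects. That run cannot show how the fit behaves where duplicate arrays share technical variation. Folds are 2 to the log2 change. Intervals are 95% and not adjusted. Of the lists, each gene entered through its brightest probe set, and up to 3 called genes with the largest change were named per list and comparison with control; 26 were. For HMOX1 and SQSTM1 the 3 most correlated genes were named. Members, lists, tests and named-gene rules were chosen with earlier results of these data known. Promoter windows are from RefSeq, GRCh38.p14. Alternatives covered normalization, floor, filter, variance trend, arrays in the fit and leaving out each array.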

Additional observations from a re-analysis of the deposited data

Results flagged for a closer look

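Differences between the effects of the receptors, each tested directly in limma, marked 7 results of the member genes for a closer look. After CD64 minus after CD32, the log2 difference was 0.82 at 2 h and 1.28 at 6 h for HMOX1, 1.13 at 2 h and 0.65 at 6 h for NQO1, and 0.67 at 6 h for GCLM. For SQSTM1 it was -0.57 at 2 h, and the interaction of receptor and time was 0.75. For each difference the 2 arrays of one group did not overlap with those of the other, while the interaction has no such pair. Of all probe sets, 55.8% at 2 h and 56.7% at 6 h did not overlap between the receptors either. Because these results were picked by their calls, the lack of overlap adds nothing to them. The added-transcript controls also differed between the receptors, at a mean log2 signal of 10.55 after CD64 and 11.03 after CD32 at 2 h and of 9.03 and 12.11 at 6 h, and their part in these differences was not tested. The 6 h differences of HMOX1 and GCLM and the 2 h difference of NQO1 kept their calls in all 17 alternatives. The other 4 did not: the NQO1 difference at 6 h was lost in 6 of 7 settings other than leaving out 1 array, the SQSTM1 interaction in 4 and the SQSTM1 difference at 2 h in 1, and each of the 4, that of HMOX1 at 2 h included, was lost in at least 3 of 10 fits without 1 array.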

How the results depend on the processing

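Of 23 called member changes 13 passed in all 17 alternatives, and 0 changed sign. Counts of members called without 1 array ranged, for CD32 2 h, CD32 6 h, CD64 2 h and CD64 6 h against control, over 2 to 4, 2 to 3, 3 to 5 and 3 to 5. For CD64 minus CD32 they were 1 to 3 at 2 h and 2 to 3 at 6 h, for CD64 6 h minus 2 h 0 to 1, and for the interaction 0 to 2. Counts over all probe sets without 1 array were, in the same order, 639 to 1143, 986 to 1474, 671 to 1162, 1003 to 1577, 652 to 1336 and 704 to 1412, then 61 to 371 for CD32 6 h minus 2 h, 469 to 1117 for CD64 6 h minus 2 h and 493 to 948 for the interaction. Fewer arrays leave less to test with. Without the variance trend the counts over all probe sets dropped to 725 (CD64 2 h against control), 830 (CD64 minus CD32 at 2 h), 54 (CD32 6 h minus 2 h), 579 (CD64 6 h minus 2 h) and 417 (interaction). That of CD64 2 h against control was 767 with only the groups compared, and that of the interaction 574 under quantile normalization. Members called for CD64 2 h against control numbered 3 with no filter and 3 without the trend, losing NFE2L2 and NQO1. For CD32 6 h minus 2 h 1 was called at the lower floor of 18.8. For CD64 6 h minus 2 h 2 were called under quantile and 2 under cyclic loess normalization, and 0 without the trend. For the interaction 0 were called under quantile normalization, at the higher floor, with no filter and without the trend, and 2 under cyclic loess, at the lower floor and with only the groups compared. The causes were not tested. Quantile normalization moved the median log2 change of all probe sets from -0.13 to 0 for CD64 2 h against control, from -0.11 to 0 for CD64 minus CD32 at 2 h, from 0.09 to -0.01 for CD64 6 h minus 2 h and from 0.16 to 0 for the interaction. Of 106 called changes of the named list genes and GSTP1, 47 passed in all alternatives, which for these genes were added after seeing the data. The counts of list genes called moved more: those of partners and regulators higher at 6 h of CD64 ranged from 2 to 7, and those of antioxidant enzymes from 1 to 5 higher at 2 h of CD64. No paired analysis was possible because the labels number only the control arrays. Signals near the floor, such as those of 213112_s_at, have no order.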
